A study of Mus musculus with 9 samples.

Results

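The genes described here are 10 genes of cadherin-mediated adhesion, 8 cadherins (Cdh1, Cdh2, Cdh3, Cdh4, Cdh5, Cdh6, Cdh11 and Cdh13) and the catenins Ctnnb1 and Ctnna1. They were chosen by gene symbol and make up 10 of the 52459 gene symbols and 43 of the 131100 transcripts quantified by RNA-Seq in 9 libraries of NMuMG cells, an immortalized mouse mammary gland line of epithelial origin. All cells had been stably transfected with a pBICEP-based vector and kept as G418-selected pools of transfectants. The 3 mock libraries came from cells with the empty vector, the 3 EPR libraries from cells overexpressing the lncRNA EPR (BC030870), and the 3 EPRSTOPE libraries from cells overexpressing EPR with the second codon of its open reading frame mutated to a stop codon, which yields no EPR peptide. Each overexpressing pool was compared with mock, where EPR carries both the RNA and its peptide, and EPR was compared with EPRSTOPE to ask about the peptide, although the level of the RNA differs between these pools as well. The methods call the libraries of a condition biological triplicates and do not say whether each came from its own pool. Below, an overexpressing pool means the 3 libraries of that condition, whatever the number of pools behind them. The p-values below therefore measure the spread between these libraries.

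Classical cadherins are calcium-dependent adhesion receptors that bind the same cadherin on the neighbouring cell and anchor to actin through catenins. Beta-catenin (Ctnnb1) binds the cadherin tail, and alpha-catenin (Ctnna1) links beta-catenin to actin filaments. Unbound beta-catenin is degraded by a complex built on Apc and Axin, or enters the nucleus and works with Tcf/Lef factors. Mammary epithelium is held together mainly by E-cadherin (Cdh1), and replacement of E-cadherin by N-cadherin (Cdh2) is a textbook feature of the epithelial to mesenchymal transition.

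The overexpressed RNA was checked first, as counts and as CPM, counts per 1000000 counts of the library after TMM scaling. BC030870 had 0, 0 and 2 counts in the mock libraries, 271, 214 and 256 in the EPR libraries and 28, 39 and 33 in the EPRSTOPE libraries, so it followed the labels and was present at 24.9 ± 1.87 CPM (SD, n = 3) with EPR and 4.24 ± 0.477 CPM (SD, n = 3) with EPRSTOPE. Libraries held 5972457 to 11876435 estimated counts, and 3 counts corresponded to 0.253 to 0.502 CPM. Of 12 epithelial markers, Krt8, Krt18 and Krt19 were abundant in every library, but Epcam, Cldn3, Cldn4, Cldn7 and Esrp1 were at 0 in all mock libraries, so the mock cells showed the keratins of the labelled epithelial line without these markers. Cldn3, Cldn4, Cldn7 and Esrp1 were also at 0 in all EPRSTOPE libraries and averaged only 0.0623 to 0.231 CPM in EPR. The summed level of the 12 markers ran from 3696 to 4161 CPM in mock, from 8947 to 10070 in EPR and from 10310 to 10630 in EPRSTOPE. Most of this sum was Krt8, at means of 2108, 5263 and 5977 CPM, and Krt18, at 1526, 3746 and 4137 CPM. It therefore says little of the other markers. Markers of 8 endothelial genes summed to 12.7 to 19.2 CPM and those of 7 immune genes to 2.01 to 4.55 CPM over all libraries, with the macrophage marker Adgre1 at 0 throughout. The 14 mesenchymal markers summed to 3888 to 4106 CPM in mock, 2464 to 2778 in EPR and 4332 to 4735 in EPRSTOPE. Most of that sum was Vim, at means of 2634, 1768 and 3138 CPM.

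Of the 10 genes, 6 passed the filter of at least 1 CPM in at least 3 libraries, and 5 of these changed between mock and either overexpressing pool in the same direction. Cdh1, Cdh6, Cdh13 and Ctnnb1 rose and Cdh2 fell in EPR, and the same 5 did so in EPRSTOPE. Both comparisons use the same mock libraries and are not independent. Calls came from edgeR's quasi-likelihood test and needed both an adjusted p under 0.01 and a size beyond 0.5 on the log2 scale. Among all 15370 genes tested, 15.2% were called higher and 12.9% lower in EPR against mock, and 15.6% higher and 12.4% lower in EPRSTOPE against mock. The median log2 fold change of the 6 genes was 0.75 in EPR and 0.90 in EPRSTOPE, beside -0.01 and -0.04 over all genes. The other 4 genes, Cdh3, Cdh4, Cdh5 and Cdh11, were below the filter. Cdh1, at 0.311 to 1.16 CPM in mock, passed it only through overexpressing libraries and could hardly be called lower against mock. An exact permutation test of 3 libraries against 3 cannot give a p under 0.1 and gave 0.1 wherever libraries did not overlap.

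**Figure D1:**
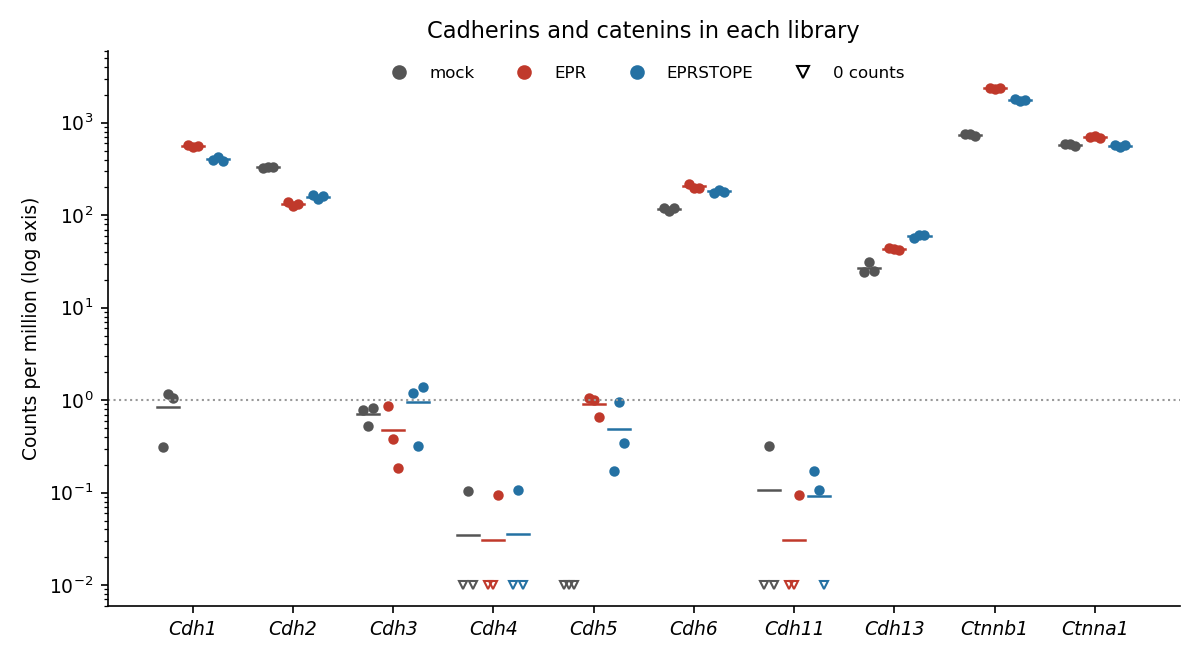
Level of each of the 10 genes in CPM on a log axis, with 1 point per library, bars at the mean of each condition and open triangles for libraries with 0 counts. The dotted line marks 1 CPM. The 3 mock libraries lie near 1 CPM for Cdh1, while the overexpressing libraries lie at 381.4 CPM or higher.

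E-cadherin showed the largest difference of the 10 genes. Cdh1 (ENSMUSG00000000303.12, chromosome 8 of GRCm38, 106603351 to 106670246, plus strand) had 2, 11 and 13 counts in the mock libraries, 6516, 4289 and 5976 in the EPR libraries and 2359, 3997 and 3315 in the EPRSTOPE libraries. Normalized for depth these were 0.311, 1.16 and 1.06 CPM in mock, 568.7, 541.6 and 558.4 CPM in EPR, and 399.6, 426.8 and 381.4 CPM in EPRSTOPE. Every overexpressing library was far above every mock library, and every EPR library was above every EPRSTOPE library. The log2 fold change was 9.23 (SE 0.16, adjusted p = 1.95e-12) in EPR and 8.76 (SE 0.16, adjusted p = 2.56e-12) in EPRSTOPE against mock. The mock level rests on few counts, so these sizes are less certain than the direction, and leaving out 1 library at a time gave values of 8.95 to 9.42 and of 8.49 to 8.96. EPR exceeded EPRSTOPE by 0.47 on the log2 scale (SE 0.09, adjusted p = 0.00288), under the fold threshold. In cultures measured as a whole, fewer cells of a type and less RNA per cell cannot be told apart.

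Cdh1 reads fell almost entirely on its protein-coding transcripts, which held 98.7 ± 1.0% of its counts in EPR and 98.9 ± 0.8% in EPRSTOPE (SD, n = 3). Cdh1-201, the longer coding transcript of 4430 nucleotides, had 0, 10 and 13 counts in mock, 5852, 3999 and 5931 in EPR and 2333, 3375 and 2969 in EPRSTOPE, and was called higher in both comparisons with mock (log2 fold changes of 9.42 and 8.88, adjusted p = 7.1e-05 and 7e-05). Cdh1-203, of 3203 nucleotides, was split unevenly between libraries of a condition, with 505, 259 and 0 counts in EPR. It was not called by edgeR or limma with voom, while DESeq2 called all 3 transcripts of Cdh1 higher in both comparisons with mock. The study's own primers for Cdh1 show which of these transcripts its PCR assay reads. They amplify 99 bases of exon 16 on chromosome 8 of GRCm38, from 106668602 to 106668700, and each matched transcripts of Cdh1 and of no other gene. The match was found in Cdh1-201 and Cdh1-203 but not in the noncoding Cdh1-202. The forward primer spans the end of the coding sequence, with the stop codon in capitals, and the reverse primer, written 5′ to 3′ on the minus strand, lies in the 3′ untranslated region.
Cdh1 forward primer: gtgaggacgacTAGgggact
Cdh1 reverse primer: cacactcagggaaggagctg

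The level of P-cadherin, whose gene lies beside that of E-cadherin, stayed low in all 3 conditions. Cdh3 (ENSMUSG00000061048.8, chromosome 8, 106510891 to 106557297) ends 46.1 kb before Cdh1 starts and had 5, 5 and 10 counts in mock, 10, 3 and 2 in EPR and 7, 3 and 12 in EPRSTOPE. The conditions overlapped, and without the filter the adjusted p was 0.695 for EPR and 0.779 for EPRSTOPE against mock. The other genes around Cdh1 moved in both directions. Of 49 tested neighbours within 1000 kb, 4 rose and 6 fell in EPR against mock and 4 rose and 2 fell in EPRSTOPE against mock, with median log2 fold changes of -0.28 and -0.18. Over all genes tested, 15.2% rose and 12.9% fell in EPR, and 15.6% rose and 12.4% fell in EPRSTOPE, so these neighbours were not called more often. The median over the 840 tested genes of chromosome 8 was -0.00 and -0.01.

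Levels can be set beside each other between genes as TPM, the level of a transcript scaled for its length and for depth. In mock cells the order was Cdh2 at 66.7 ± 7.30 TPM, Cdh6 at 37.7 ± 1.86 TPM and Cdh13 at 19.5 ± 1.03 TPM (SD, n = 3), with no overlap between neighbours in that order, and Cdh1 followed at 0.207 ± 0.143 TPM. In EPR cells it was Cdh1 at 117.3 ± 12.03, Cdh6 at 68.3 ± 4.93, Cdh2 at 28.2 ± 1.17 and Cdh13 at 20.0 ± 3.92 TPM, again without overlap. In EPRSTOPE cells Cdh1 was at 88.1 ± 20.0 TPM, Cdh6 at 62.1 ± 11.5, Cdh2 at 34.1 ± 4.25 and Cdh13 at 25.9 ± 7.72 TPM, and Cdh2 and Cdh13 overlapped, as did Cdh1 and Cdh6. The remaining 4 cadherins stayed under 1 TPM in every library. Cdh2 thus led in mock and stood below Cdh1 and Cdh6 in both overexpressing pools.

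The summed level of the 8 cadherins was 118.8, 134.5 and 119.4 TPM in mock, 252.2, 240.6 and 210.3 TPM in EPR and 198.5, 243.9 and 189.2 TPM in EPRSTOPE. All overexpressing libraries exceeded all mock libraries. Cdh2 made up 53.6 ± 1.99% of this sum in mock, 12.1 ± 0.676% in EPR and 16.3 ± 1.35% in EPRSTOPE (SD, n = 3). Cdh1 made up 0.162 ± 0.102% in mock, 50.04 ± 0.864% in EPR and 41.5 ± 3.55% in EPRSTOPE. The share of Cdh6 lay between 27.5% and 31.2% in all 9 libraries. Per library, the log2 ratio of Cdh1 to Cdh2 was -9.70, -7.71 and -8.40 in mock, 2.13, 2.07 and 1.95 in EPR and 1.19, 1.56 and 1.31 in EPRSTOPE, with no overlap between EPR and EPRSTOPE.

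**Figure D2:**
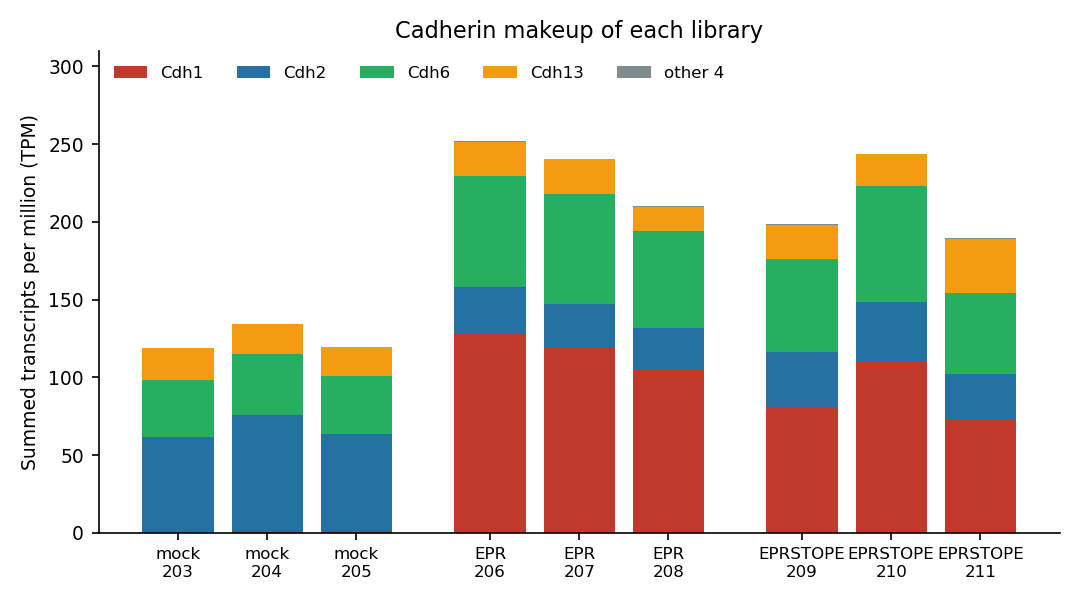
Summed TPM of the cadherins in each of the 9 libraries as stacked bars, 1 bar per library, with Cdh3, Cdh4, Cdh5 and Cdh11 added up as the other 4. Cdh2 is the largest part of each mock bar and Cdh1, near 0 in mock, is the largest part of each EPR and EPRSTOPE bar.

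N-cadherin fell in both overexpressing pools. Cdh2 (ENSMUSG00000024304.14, chromosome 18, 16588877 to 16809246, minus strand) was at 327.9, 334.6 and 328.8 CPM in mock, 140.0, 125.8 and 131.3 CPM in EPR and 163.5, 149.1 and 162.5 CPM in EPRSTOPE. The mock libraries stood well above the rest, and the EPR and EPRSTOPE libraries did not overlap either. In EPR the log2 fold change was -1.32 (SE 0.06, adjusted p = 6.43e-09) and in EPRSTOPE -1.06 (SE 0.06, adjusted p = 3.44e-08), that is 2.50-fold and 2.09-fold lower than mock. EPR against EPRSTOPE gave -0.26 (SE 0.06, adjusted p = 0.00688), under the fold threshold. Cdh2 was still at 125.8 CPM or more in each overexpressing library.

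On average the proportions of the Cdh2 transcripts were alike in the 3 conditions, but they varied between libraries. Cdh2-202, a coding transcript of 3785 nucleotides, held 74.4%, 72.2% and 73.0% of the summed TPM of the gene in mock, EPR and EPRSTOPE. The longer coding transcript Cdh2-201 held 20.0%, 21.7% and 22.7%. Its share of the counts of a library ran from 22.41 to 26.14% in mock, 17.01 to 36.35% in EPR and 22.78 to 35.96% in EPRSTOPE. Cdh2-202 fell in both pools (log2 fold changes of -1.30 and -1.07, adjusted p = 0.00048 and 0.0012). Cdh2-201 had log2 fold changes of -1.19 and -0.88 and did not pass the test, with adjusted p = 0.044 and 0.12. Among the tested transcripts, 4.07% were called in either direction in EPR against mock, 4.64% in EPRSTOPE against mock and 0.854% in EPR against EPRSTOPE. Of 43 transcripts of the 10 genes, 29 were tested, of which 2 were called higher and 1 lower in EPR against mock and 3 higher and 1 lower in EPRSTOPE against mock.

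K-cadherin, a type II cadherin of the developing kidney, rose to a lesser extent. Cdh6 (ENSMUSG00000039385.4, chromosome 15, 13028701 to 13173675, minus strand) was at 119.1, 110.2 and 120.1 CPM in mock, 216.4, 198.6 and 198.9 CPM in EPR and 174.2, 188.7 and 180.3 CPM in EPRSTOPE, and no condition overlapped another. The log2 fold change was 0.81 (SE 0.06, adjusted p = 5.32e-07) in EPR and 0.64 (SE 0.06, adjusted p = 4.26e-06) in EPRSTOPE against mock, and 0.18 (SE 0.06, adjusted p = 0.0497) between EPR and EPRSTOPE. All of its counts lay on the coding transcript Cdh6-201. Over the 525 tested genes of chromosome 15 the median was 0.49 for EPR and 0.52 for EPRSTOPE against mock, while the medians of the other chromosomes that carry these genes (2, 8, 9 and 18) lay between -0.04 and 0.02. The 7 tested genes within 1000 kb of Cdh6 had medians of 0.14 and 0.20. The part of this chromosome-wide difference in the change of Cdh6 was not tested.

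T-cadherin, which is tethered to the membrane by a lipid anchor and has no tail to bind catenins, rose in both pools and was highest in EPRSTOPE. Cdh13 (ENSMUSG00000031841.19, chromosome 8, 118283733 to 119324921) was at 24.1, 30.9 and 25.2 CPM in mock, 44.1, 43.4 and 41.7 CPM in EPR and 56.8, 61.2 and 61.7 CPM in EPRSTOPE, without overlap between conditions. The log2 fold change against mock was 0.69 (SE 0.10, adjusted p = 8.12e-05) in EPR and 1.16 (SE 0.10, adjusted p = 8.52e-07) in EPRSTOPE. The direct comparison of EPR with EPRSTOPE gave -0.48 (SE 0.09, adjusted p = 0.00206). Of its 8 transcripts only Cdh13-201 is protein coding, with 80, 178 and 145 counts in mock, 349, 216 and 308 in EPR and 276, 503 and 385 in EPRSTOPE. This transcript was called higher in EPRSTOPE (log2 fold change 1.78, adjusted p = 0.0013) but not in EPR (1.06, adjusted p = 0.017), and the comparison between them gave -0.72 (adjusted p = 0.15). DESeq2 and limma with voom called it higher in EPR too (1.03 and 1.10, adjusted p = 2.9e-05 and 0.00978), and DESeq2 called it lower in EPR than in EPRSTOPE (-0.78, adjusted p = 0.0043). It held 53.1 ± 7.0% of the counts of the gene in mock, 67.0 ± 3.6% in EPR and 80.7 ± 8.1% in EPRSTOPE (SD, n = 3).

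The noncoding transcripts of Cdh13 weigh more in TPM, since most are short. Cdh13-203, a retained intron form of 715 nucleotides, held 33.0% of the summed TPM of the gene in mock, 12.3% in EPR and 11.6% in EPRSTOPE. Cdh13-208, of 580 nucleotides, held 13.3%, 23.4% and 20.5%, Cdh13-207, of 620 nucleotides, held 20.4%, 8.84% and 9.74%, and Cdh13-204, of 1535 nucleotides, held 10.4%, 12.3% and 6.15%. None of these 4 had more than 59 counts in a library, and none was called. With counts scaled from TPM in place of the deposited counts, Cdh13 lost its call in both comparisons with mock, at log2 fold changes of 0.22 in EPR and 0.59 in EPRSTOPE. With protein-coding transcripts alone they were 0.98 and 1.68.

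Beta-catenin rose in both pools and, as CPM per kb of its longest coding transcript, was the most abundant of the 10 genes in each condition. Ctnnb1 (ENSMUSG00000006932.17, chromosome 9, 120929216 to 120960507, plus strand) was at 761.0, 747.8 and 725.2 CPM in mock, 2393, 2313 and 2363 CPM in EPR and 1800, 1735 and 1739 CPM in EPRSTOPE. The libraries of a condition lay within a few percent of each other, with a coefficient of variation of 1.7 to 2.4%, and the conditions stood far apart. Against mock the log2 fold change was 1.66 (SE 0.04, adjusted p = 3.29e-11) in EPR and 1.24 (SE 0.04, adjusted p = 2.78e-10) in EPRSTOPE, or 3.16-fold and 2.36-fold above mock. EPR exceeded EPRSTOPE by 0.42 (SE 0.04, adjusted p = 9.23e-06), under the fold threshold.

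The split of Ctnnb1 reads over its 15 transcripts was as variable as the gene sum was stable. Ctnnb1-214, a coding transcript of 2702 nucleotides, had 0, 1054 and 157 counts in mock, 9551, 7772 and 10011 in EPR and 3179, 4966 and 86 in EPRSTOPE. Ctnnb1-201, the longest coding transcript at 3623 nucleotides, had 6222, 1220 and 299 counts in the 3 EPRSTOPE libraries. Protein-coding transcripts held 89.6%, 42.2% and 16.0% of the counts in the EPRSTOPE libraries, 42.4%, 66.2% and 59.0% in the EPR libraries and 19.0%, 30.0% and 16.6% in the mock libraries. The coefficient of variation of single transcripts with at least 100 counts on average had a median of 25.9% in mock, 60.5% in EPR and 95.2% in EPRSTOPE.

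None of the 13 tested Ctnnb1 transcripts was called in EPR against mock by edgeR, with 6 at an unadjusted p under 0.05, and none in EPRSTOPE against mock, with 2. DESeq2 called 1 and 2 of them higher, and limma with voom called 0 in both. Shorter forms held much of the summed TPM of the gene. The retained intron transcript Ctnnb1-215, of 1292 nucleotides, held 18.4%, 21.4% and 15.7% in mock, EPR and EPRSTOPE, and Ctnnb1-210, of 773 nucleotides, held 19.5%, 10.7% and 11.98%. The nonsense-mediated decay form Ctnnb1-213, of 692 nucleotides, held 19.2%, 11.2% and 13.2%, and the coding Ctnnb1-207, of 714 nucleotides, held 18.7%, 4.35% and 9.90%. As sums of TPM, Ctnnb1 was at 972.3, 719.7 and 767.4 in mock, 1639, 1190 and 1285 in EPR and 621.4, 1135 and 1908 in EPRSTOPE, so that mock and EPRSTOPE overlapped on this scale. With counts scaled from TPM the log2 fold changes were 0.94 and 0.74 and neither was called, and with protein-coding transcripts alone they were 2.99 and 2.33.

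**Figure D3:**
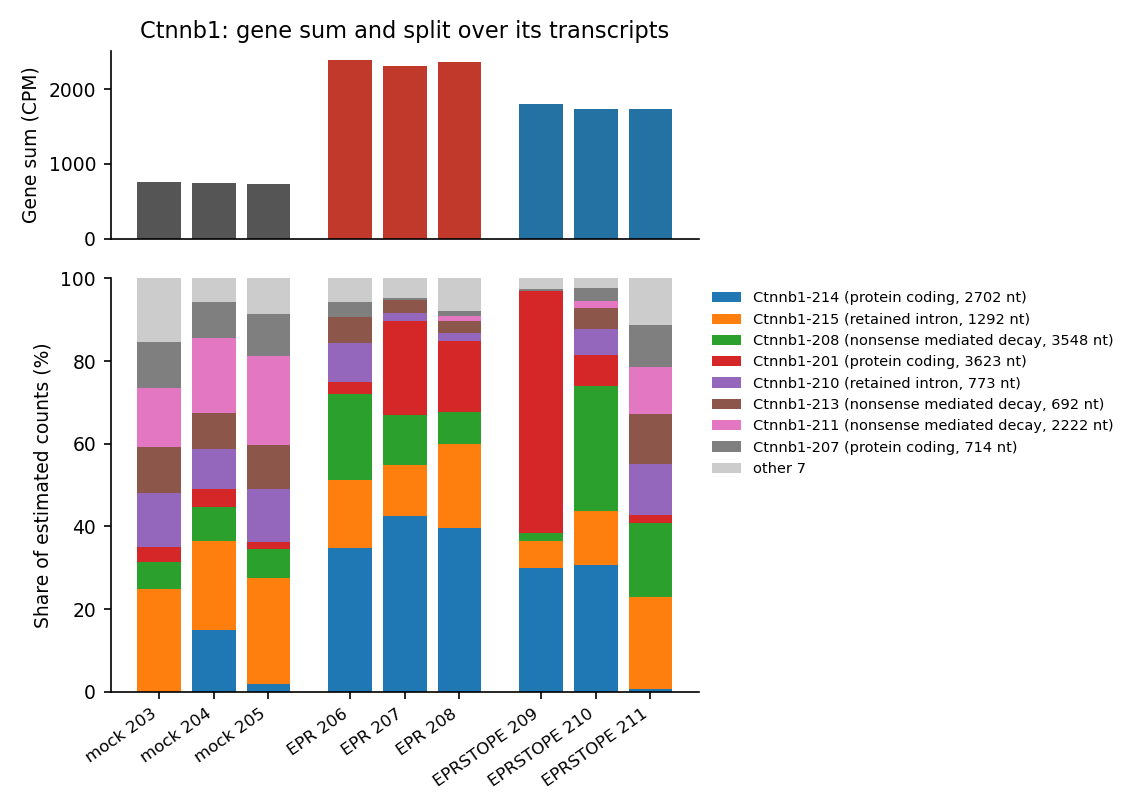
Upper bars give the summed level of Ctnnb1 in CPM in each of the 9 libraries, coloured by condition, and lower stacked bars give the share of its estimated counts on each transcript, with the 7 least abundant joined. The upper bars of a condition are nearly equal, while the make-up below them differs, with Ctnnb1-201 at 6222, 1220 and 299 counts in the EPRSTOPE libraries.

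Promoter windows of the rising genes Ctnnb1 and Cdh6 were read from RefSeq on GRCm38.p6, from 250 bases before to 50 after an annotated start. Windows are given for these 2 of the 10 genes only, which does not mean that the others had no entry. Cdh1 and Cdh13 also rose and have no window here. No gene that fell or was not called has a window either. Cdh2, which fell, and Ctnna1, which was not called, were left out of the windows, rather than read and found without motifs. Motifs were therefore not compared between rising and other genes, and the motif counts per window cover Ctnnb1 and Cdh6 only. Letters in capitals mark GGGCGG, the GC box bound by Sp and Klf factors, on either strand. Of 2 overlapping Ctnnb1 windows the one at the upstream start is printed, and the other (chr9:120933328-120933627) held 3 GC boxes and 1 TATAAA, which 13.6% of all promoters held. The printed Ctnnb1 window (chr9:120933150-120933449, plus strand) was 75.3% G or C with 3 GC boxes, and the Cdh6 window (chr15:13173626-13173925, minus strand) was 53.0% G or C with 2 overlapping ones, beside a median of 53.0% over 32544 promoters. A GC box on either strand was found in 35.9% of all promoters and CACCTG, the E-box of Snai and Zeb repressors, in 20.3%, but CACCTG was in none of these windows.
Ctnnb1 window: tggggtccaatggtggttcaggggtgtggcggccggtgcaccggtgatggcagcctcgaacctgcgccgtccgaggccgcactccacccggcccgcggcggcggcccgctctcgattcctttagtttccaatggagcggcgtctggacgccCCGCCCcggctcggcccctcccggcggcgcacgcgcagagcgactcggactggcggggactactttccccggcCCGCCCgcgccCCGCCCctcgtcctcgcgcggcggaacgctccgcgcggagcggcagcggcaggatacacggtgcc
Cdh6 window: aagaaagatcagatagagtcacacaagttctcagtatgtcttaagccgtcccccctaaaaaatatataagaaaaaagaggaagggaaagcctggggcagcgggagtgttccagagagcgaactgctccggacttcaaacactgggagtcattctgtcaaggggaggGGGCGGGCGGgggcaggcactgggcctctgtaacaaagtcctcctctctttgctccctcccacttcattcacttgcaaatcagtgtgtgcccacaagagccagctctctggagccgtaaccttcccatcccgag

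The remaining 4 cadherins were at or near the floor of detection, and Cdh5 alone of them passed the test without the filter. Cdh5, the VE-cadherin of endothelial cells (ENSMUSG00000031871.9), had 0 counts in all 3 mock libraries, 12, 8 and 7 in the EPR libraries and 1, 9 and 3 in the EPRSTOPE libraries. Over the summed library totals of a group, Cdh5 was at 0.886 CPM in EPR (95% Poisson interval 0.584 to 1.29). In EPRSTOPE it was at 0.521 CPM (0.277 to 0.891), and the upper Poisson limit in mock was 0.136 CPM. These intervals cover counting error only. The EPR and EPRSTOPE levels were 8.0-fold and 4.71-fold a floor of 3 counts over the mock group, without allowing for their own counting error. Without EPRSTOPE 210, which held 9 of the 13 counts, the EPRSTOPE value was 2.38-fold. When all genes were tested without the filter, edgeR gave Cdh5 an adjusted p of 7.51e-05 in EPR and 0.00187 in EPRSTOPE against mock, and of 0.649 between the pools. The 8 endothelial markers, named here after their values were seen, did not move together. Pecam1 was at 11.3 ± 0.317, 12.4 ± 2.15 and 13.4 ± 2.26 CPM (SD, n = 3) in mock, EPR and EPRSTOPE and Vwf at 1.77 ± 0.353, 2.03 ± 0.310 and 1.71 ± 0.662 CPM, and neither was called by edgeR. Esam averaged 0.880 ± 0.207 CPM in mock against 0.0842 ± 0.146 and 0.0712 ± 0.123 CPM, Tie1 averaged 0.347 to 0.638 CPM, and Kdr, Tek, Emcn and Erg averaged at most 0.217 CPM. Cdh4, the R-cadherin of retina, had 1 count in 1 library of each condition and 0 in the rest. Cdh11, a cadherin of osteoblasts and mesenchyme, had 0 to 3 counts per library, all on the retained intron form Cdh11-202 and none on its coding transcript. The floor was set at 3 counts over a group, which corresponded to 0.0984 to 0.120 CPM.

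Alpha-catenin did not pass the call in any comparison. Ctnna1 (ENSMUSG00000037815.6, chromosome 18, 35118859 to 35254779) was at 589.2, 593.8 and 560.9 CPM in mock, 696.8, 723.7 and 678.2 CPM in EPR and 571.3, 552.3 and 576.1 CPM in EPRSTOPE. The EPR libraries lay above all others, while mock and EPRSTOPE overlapped. EPR against mock gave 0.27 (SE 0.05, adjusted p = 0.000571) and EPRSTOPE against mock -0.04 (SE 0.05, adjusted p = 0.563; exact permutation p = 0.3). EPR exceeded EPRSTOPE by 0.30 (SE 0.05, adjusted p = 0.000502). Its single annotated transcript is coding. With counts scaled from TPM, Ctnna1 was called higher in EPR against mock, at 0.54.

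Levels of cadherins and catenins were also set side by side as CPM per kb of the longest coding transcript, which does not depend on the split between transcripts. The cadherin sum includes Cdh13, which has no tail to bind catenins. On this scale the summed cadherins were at 119.9 ± 0.580, 242.4 ± 8.30 and 208.6 ± 5.88 in mock, EPR and EPRSTOPE, Ctnnb1 at 205.5 ± 4.996, 650.4 ± 11.2 and 485.2 ± 10.1, and Ctnna1 at 157.2 ± 4.82, 189.2 ± 6.18 and 153.2 ± 3.41 (SD, n = 3). The ratio of summed cadherins to Ctnnb1 was 0.584 ± 0.0170 in mock, 0.373 ± 0.00721 in EPR and 0.43 ± 0.0183 in EPRSTOPE. The ratio of Ctnnb1 to Ctnna1 was 1.31 ± 0.0194, 3.44 ± 0.157 and 3.17 ± 0.0755. Cadherin mRNA per alpha-catenin mRNA was 0.763 ± 0.0275 in mock and 1.28 ± 0.0696 and 1.36 ± 0.0693 in EPR and EPRSTOPE, where the libraries of these last conditions overlapped. With TPM the ratio of summed cadherins to Ctnnb1 was 0.155 ± 0.0323, 0.173 ± 0.0256 and 0.211 ± 0.110 and that of Ctnnb1 to Ctnna1 was 6.55 ± 1.58, 8.56 ± 1.86 and 9.67 ± 6.45 in mock, EPR and EPRSTOPE, and the conditions overlapped in both. The differences in these ratios to Ctnnb1 or of Ctnnb1 therefore hold for CPM per kb and not for TPM, while cadherins per Ctnna1 stayed lower in mock on both scales, at 0.981 ± 0.0467, 1.45 ± 0.128 and 1.58 ± 0.121 with TPM.

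None of the 6 tested genes passed the call between EPR and EPRSTOPE in edgeR, DESeq2 or limma with voom, although all 6 had an unadjusted p under 0.05 with each tool. Among all genes, 6.86% were called higher and 6.35% lower in EPR against EPRSTOPE. At an adjusted p under 0.01 with no fold threshold 5 of the 6 passed, Cdh1, Ctnnb1 and Ctnna1 with EPR higher and Cdh2 and Cdh13 with EPRSTOPE higher, beside 19.5% of all genes tested. The size of these 5 differences ran from 0.26 to 0.48 on the log2 scale. BC030870 itself was 2.56 higher on the log2 scale in EPR than in EPRSTOPE (SE 0.20, adjusted p = 1.99e-06), and its part in these differences was not tested. No transcript of the 10 genes was called by edgeR in this comparison, with 4 at an unadjusted p under 0.05, while DESeq2 called 1 lower and limma with voom 1 higher.

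**Figure D4:**
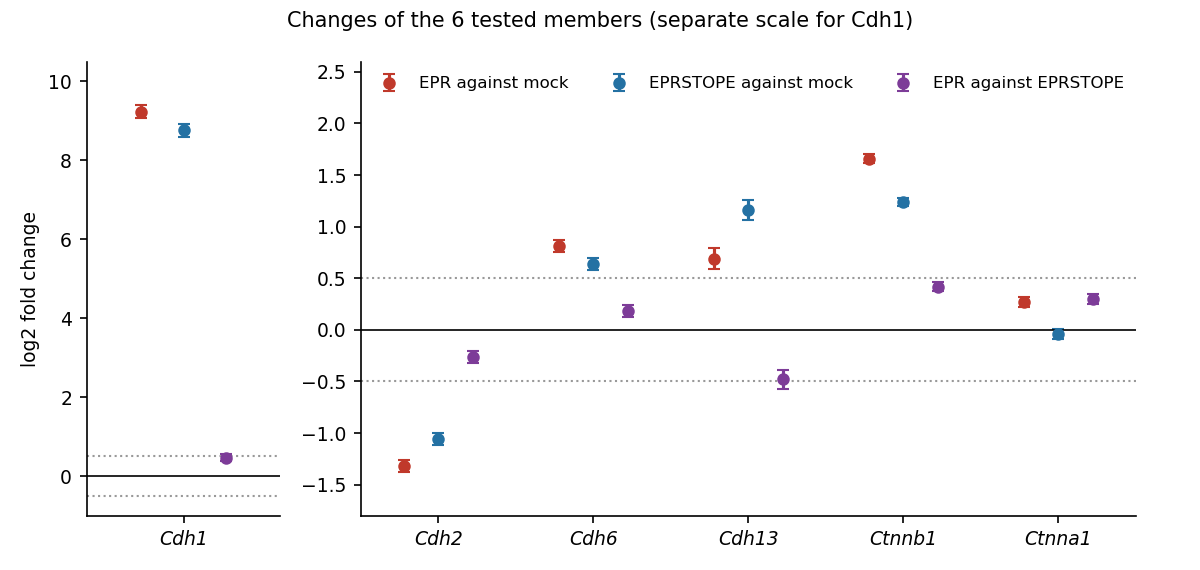
Log2 fold change with its standard error for the 6 tested genes in 3 comparisons, with a separate scale for Cdh1. Dotted lines mark 0.5 and -0.5. Cdh1 lies at 9.23 and 8.76 against mock, Cdh2 at -1.32 and -1.06, and all EPR against EPRSTOPE values lie within the dotted lines.

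Among the genes tested, the pattern of Cdh1 over the 9 libraries was most like that of Wfdc2, Gsdmd and Plac8. The measure was the root mean square difference of log2(CPM + 0.5) centred on each gene's mean, over 9937 genes with at least 10 CPM in their highest condition, and the values were 0.153, 0.416 and 0.432. Wfdc2, a secreted protein of epithelia, was at 0.125 ± 0.111, 269.5 ± 11.3 and 201.8 ± 4.85 CPM in mock, EPR and EPRSTOPE (SD, n = 3). Gsdmd, the pore-forming protein of pyroptosis, was at 0.844 ± 0.168, 373.3 ± 21.3 and 319.1 ± 16.3 CPM. For Cdh2 the nearest genes were Vrk1 (0.071), Lrrc8c (0.082) and Plk4 (0.089). Vrk1, a nuclear kinase, was at 47.9 ± 0.726, 17.9 ± 1.33 and 23.9 ± 1.36 CPM, and Plk4, a kinase of centriole duplication, at 88.3 ± 4.38, 32.0 ± 0.898 and 38.3 ± 1.83 CPM.

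One further cadherin rose with Cdh1. Of 15 other cadherins 2 were tested, and Cdh17, the LI-cadherin of liver and intestine, was called higher in both pools. The mock level was 5.86 ± 0.908 CPM, the EPR level 104.3 ± 4.21 CPM and the EPRSTOPE level 231.1 ± 22.4 CPM (SD, n = 3), with log2 fold changes of 4.18 (SE 0.11, adjusted p = 6.9e-11) and 5.33 (SE 0.12, adjusted p = 1e-11). Between EPR and EPRSTOPE it was called lower, at -1.15 (SE 0.09, adjusted p = 1.7e-06). The other tested gene of the list, Cdh24, named here after its values were seen, was at 2.54 ± 0.361, 3.74 ± 0.795 and 2.99 ± 1.02 CPM and was not called.

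Other catenins and linkers of the junction changed in part. Of 20 such genes 16 were tested, and 6 rose and 1 fell in each comparison with mock, with median log2 fold changes of 0.45 in EPR and 0.28 in EPRSTOPE. The shares over all genes were 15.2% higher and 12.9% lower in EPR, and 15.6% and 12.4% in EPRSTOPE. Ctnnal1, the alpha-catenin-like protein, rose by 2.85 (SE 0.11) in EPR and 3.57 (SE 0.11) in EPRSTOPE, and Plekha7, which ties p120-catenin to microtubules, rose by 2.16 (SE 0.20) and 1.24 (SE 0.21). Nectin3, an immunoglobulin-type adhesion receptor of the junction, was lower in both, with log2 fold changes of -1.51 (SE 0.09) and -1.58 (SE 0.09), while Nectin2 rose in EPR (1.39, SE 0.18, adjusted p = 4.2e-05) and was at 0.25 (SE 0.19, adjusted p = 0.29) in EPRSTOPE, a difference that passed the direct comparison (1.14, adjusted p = 0.00047). Vinculin, p120-catenin and plakoglobin were chosen after their values were seen. Vcl rose by 1.15 and 0.85 and Ctnnd1 by 0.77 and 0.51. The call of Ctnnd1 in EPRSTOPE was lost without mock 203 or 204 or EPRSTOPE 210 or 211, at 0.48 to 0.50. Jup, the closest relative of Ctnnb1, had values of 0.22 (adjusted p = 0.0349) and -0.26 (adjusted p = 0.0165) and was not called.

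Among 17 transcription factors known to act on cadherin genes, 13 were tested, with 3 called higher and 4 lower in EPR, and 5 higher and 3 lower in EPRSTOPE against mock. Without mock 205 the latter 8 calls became 5. Calls over all genes were 15.2% higher and 12.9% lower in EPR, and 15.6% and 12.4% in EPRSTOPE. Elf3, an epithelial Ets factor, rose from 6.33 ± 1.11 CPM to 17.8 ± 0.891 and 31.4 ± 2.33 CPM (log2 fold changes of 1.5 and 2.32), and Klf4 rose by 0.86 and 1.32. Twist2, a repressor of Cdh1, was lower in both (-1.44 and -1.12). Grhl1 rose in EPRSTOPE alone (0.96, adjusted p = 0.0012; -0.19 in EPR, adjusted p = 0.48), and EPR against EPRSTOPE gave -1.14 (adjusted p = 0.00074). The following were chosen after their values were seen. Snai2 was lower in both pools (-1.5 and -1.03, the latter lost without mock 204 or 205 or EPRSTOPE 209 or 211, at -1.0 to -0.94), Zeb2 was called lower in EPR (-0.78, adjusted p = 2.89e-05) and was at -0.39 in EPRSTOPE, and Snai1 was called higher in EPRSTOPE (1.59, adjusted p = 0.00045). Zeb1, also a repressor of Cdh1, was at 54.1 ± 3.94, 49.5 ± 1.29 and 50.1 ± 4.11 CPM, with log2 fold changes of -0.13 (adjusted p = 0.228) and -0.11 (adjusted p = 0.294). Foxa1, a forkhead factor of mammary epithelium, was called lower in both pools, with 8.15 ± 0.784 CPM in mock against 0.210 ± 0.185 CPM in EPR and 0.0740 ± 0.0642 CPM in EPRSTOPE.

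Calls among genes around free beta-catenin went in both directions. Of 10 components of the destruction complex, all tested, none rose in any comparison, 2 fell in EPR and 1 in EPRSTOPE, with median log2 fold changes of -0.18 and -0.08. These falls are near the shares of all genes called lower, 12.9% in EPR and 12.4% in EPRSTOPE, while 15.2% and 15.6% were called higher. Amer1, a scaffold of that complex, fell by 0.79 (SE 0.17, adjusted p = 0.0022) in EPR and by 0.76 (SE 0.17, adjusted p = 0.0032) in EPRSTOPE. No call of this list in EPR remained without mock 204 or 205, and none in EPRSTOPE without mock 204 or 205 or EPRSTOPE 209 or 210. Of 14 Tcf partners and targets 7 were tested, with 2 higher and 2 lower in EPR and 1 higher and 3 lower in EPRSTOPE, where the 4 calls became 2 without mock 203 or 204. With counts scaled from TPM the 4 calls in EPR became 2. Ccnd1, the cyclin of early cell cycle entry, rose by 0.55 (SE 0.04) in EPR and was at 0.36 (SE 0.04) in EPRSTOPE, under the fold threshold, and its call in EPR was lost at 0.45 with counts scaled from TPM. Tcf7l2 rose in EPR by 1.27 (SE 0.20, adjusted p = 0.00024), and EPR against EPRSTOPE gave 0.91 (adjusted p = 0.0048), a call lost at 0.81 to 0.98 without EPR 206 or 208 or any EPRSTOPE library. Cd44, the hyaluronan receptor, rose in EPRSTOPE by 1.03 (SE 0.06) and was at 0.29 in EPR, and the direct comparison gave -0.73 (adjusted p = 2.2e-06). Znrf3, a ubiquitin ligase that limits Wnt receptors, fell by 0.94 (SE 0.13) and by 0.59 (SE 0.13), the latter lost without mock 203 or 204 or EPRSTOPE 210 at -0.57 to -0.51.

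**Figure D5:**
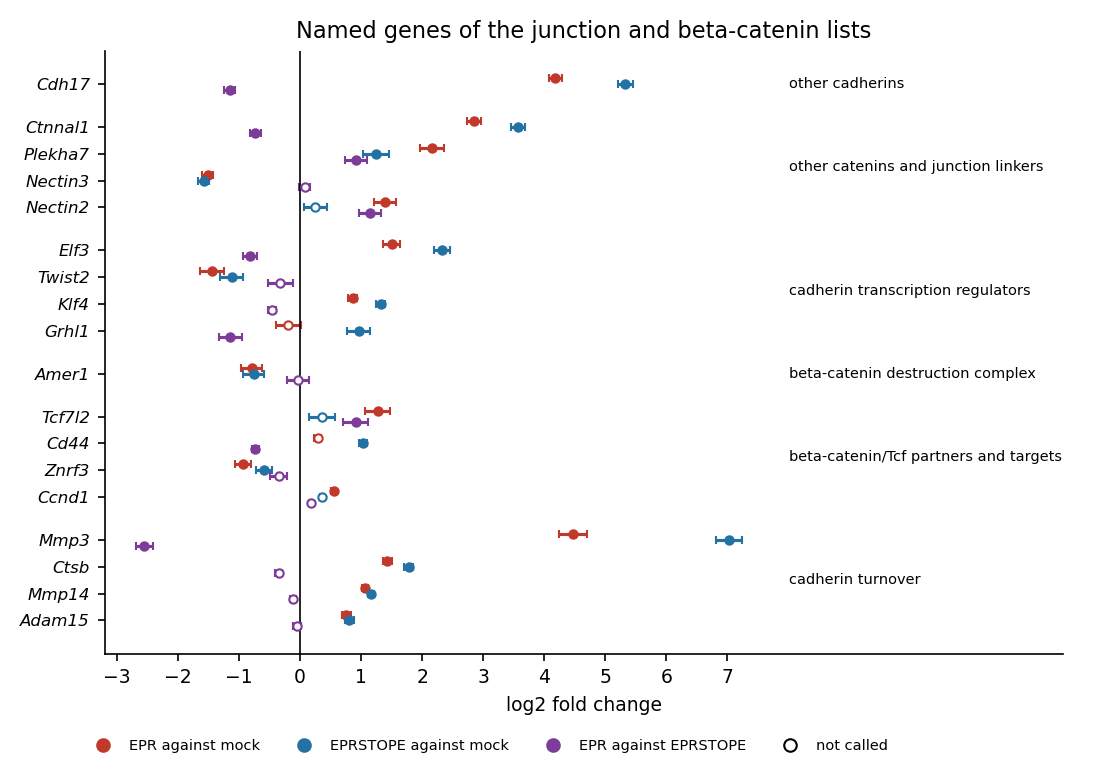
Log2 fold change with its standard error for the named genes of 6 lists around the junction and beta-catenin, in 3 comparisons, with filled points where the call was passed and open points where it was not. Mmp3 at 7.02 and Cdh17 at 5.33, both in EPRSTOPE against mock, are the largest values drawn.

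Krt8 and Krt18 rose beside Cdh1 in both pools, other keratins did so in EPR, and mesenchymal markers moved in both directions. Of 12 epithelial markers 7 were tested, with 6 higher in EPR, 3 higher in EPRSTOPE and none lower in either. Epcam and Ocln were under 1 CPM in every mock library and passed the filter only through overexpressing libraries. Against mock they could hardly be called lower. For the epithelial and the mesenchymal list, the all-gene shares were 15.2% higher and 12.9% lower in EPR, and 15.6% and 12.4% in EPRSTOPE. Krt8 rose by 1.32 and 1.5, Krt18 by 1.29 and 1.44, and Ocln, an occludin of tight junctions, from 0.315 ± 0.152 CPM to 11.6 ± 0.377 and 6.87 ± 0.988 CPM (SD, n = 3). Krt19 rose by 1.06 in EPR and was at 0.46 in EPRSTOPE, under the fold threshold, and the direct comparison gave 0.60 (adjusted p = 1e-05). Krt7 and Epcam were chosen after their values were seen. Krt7 rose by 2.25 in EPR (adjusted p = 1.64e-05) and was at -0.44 in EPRSTOPE (adjusted p = 0.261), with 2.69 in the direct comparison (adjusted p = 1.75e-05). Epcam had a mean of 3.63 ± 1.07 CPM in EPR and 0.110 ± 0.107 CPM in EPRSTOPE. Of 14 mesenchymal markers 6 were tested, with 2 higher and 4 lower in EPR and 2 higher and 1 lower in EPRSTOPE. Pdgfra, at 0 in mock, passed the filter only through overexpressing libraries and could not be called lower against mock. Acta2 was lower in both, with log2 fold changes of -3.08 (SE 0.36) and -3.54 (SE 0.39), and S100a4 higher in both (1.07 and 1.22). Fn1, encoding fibronectin, was called lower in EPR (-1.46, SE 0.08) and was at -0.41 in EPRSTOPE, and Fstl1 averaged 78.0 ± 3.29 CPM in mock against 1.21 ± 0.494 CPM in EPR, with 86.2 ± 5.97 CPM in EPRSTOPE. Their part in the changes of the cadherins was not tested.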

How the data were processed

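Total RNA of 3 mock, 3 EPR and 3 EPRSTOPE cultures was sequenced in read pairs. Per the labels and the methods, the authors quantified transcripts with kallisto 0.43.1 on Gencode vM15 (GRCm38.p5) and deposited 2 values per transcript, the raw estimated count and the TPM, which is scaled by effective length. The authors' gene counts from STAR and HTSeq were not used here. Kallisto splits a read shared between transcripts by likelihood, so values of single transcripts are less certain than gene sums.

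Estimated counts were summed by gene symbol and rounded. The filter kept features that reached 1 CPM in 3 or more libraries. A gene that passed it through 1 side of a comparison alone could hardly be called in the other direction. The kept features were fitted by quasi-likelihood in edgeR 4.0.16 (R 4.3.3), TMM-normalized, with the condition as the factor over all 9 libraries. P-values were adjusted by the Benjamini-Hochberg method over all 15370 genes or 45412 transcripts, and adjusted p-values in the text come from this test unless another tool or the unfiltered fit is named. Standard errors were derived from the F statistic. Totals of 5972457 to 11876435 counts set the floors given in the text. Groups came from the genotype labels. No pair of libraries of a condition agreed within sampling noise (chi-square per degree of freedom of 4.63 to 9.59).

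The 10 genes and all gene lists were chosen with earlier results of these data known. Named are all 10 genes, their transcripts holding at least 10% of the summed TPM in any condition, and from each list up to 4 genes called in at least 1 comparison, with at least 10 CPM in the higher condition, by the largest log2 fold change; marker genes at 0 are named from the marker lists, and other genes named after their values were seen are marked. Cdh1 primers came from the study's primer list and were placed on Gencode M21, and promoters came from RefSeq (GRCm38.p6). Alternatives were DESeq2 1.42.0, limma 3.58.1 with voom, other size factors, filters, thresholds and sample sets. Further ones were counts scaled from TPM, CPM for TPM and leaving out each library. Chosen after seeing the data were protein-coding transcripts only, CPM per kb, TPM for cadherin and catenin ratios, and the Cdh5 folds without single libraries. Scripts were tested on simulated data. Other steps used Python 3.11.15, pandas 2.3.3, scipy 1.17.1 and, for plots, matplotlib 3.10.9.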

Additional observations from a re-analysis of the deposited data

Results flagged for a closer look

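In 5 of the 6 tested genes the direct comparison of EPR with EPRSTOPE gave an adjusted p under 0.01 by edgeR, with the mock libraries cancelling out. Of all genes tested, 19.5% passed the same cut. The log2 fold change, EPR minus EPRSTOPE, was 0.47 for Cdh1, -0.26 for Cdh2, -0.48 for Cdh13, 0.42 for Ctnnb1 and 0.30 for Ctnna1. As CPM, the 3 EPR libraries did not overlap the 3 EPRSTOPE libraries in each case, which the choice by adjusted p favours. The rate of such separation over all genes was not counted. With TPM the libraries of these conditions overlapped for Cdh1, Cdh13, Ctnnb1 and Ctnna1, and not for Cdh2. In each of the 5 genes the size of the log2 fold change was under the fold threshold of 0.5.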

How the results depend on the processing

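The 18 log2 fold changes of the 6 tested genes were recomputed 339 times, and 319 values kept their direction and side of the threshold, 7 lost the call, 12 gained one and 1 reversed. With counts scaled from TPM, Ctnna1 in EPRSTOPE against mock went to 0.24, Znrf3 in EPRSTOPE to 0.07 and Zeb1 in EPR to 0.01, none of which kept its sign, and 2 of the 10 genes were higher in EPRSTOPE. Of the genes, 2 were higher in EPR beyond a log2 fold change of 1. Between EPR and EPRSTOPE, 4 were higher and 2 lower at an adjusted p under 0.05 at any fold, 1 higher and 1 lower with protein-coding transcripts only, and 0 to 1 in each direction leaving out single libraries (Cdh1 at 0.51 without EPRSTOPE 210, Cdh13 at -0.50 without EPRSTOPE 209). Of the transcripts, DESeq2 called 6 higher and 3 lower in EPR, 7 higher and 2 lower in EPRSTOPE against mock and 1 lower between them. An adjusted p under 0.05 at any fold gave 5 higher and 3 lower in EPR, 2 lower in EPRSTOPE and 1 higher between them, at least 10 counts in every library 3 and 2 lower against mock, and limma with voom 2 and 2 lower and 1 higher between the pools. Beyond a fold of 1, 1 was higher in EPR. Leaving out single libraries gave 2 to 4 higher in EPR and 3 to 5 in EPRSTOPE, the most without EPRSTOPE 209. Cadherin shares in mock, EPR and EPRSTOPE with CPM for TPM were 59.3% and 50.1% for Cdh1 in the pools, 69.5%, 14.1% and 19.7% for Cdh2, 24.5%, 21.8% and 22.5% for Cdh6, and 5.62%, 4.59% and 7.45% for Cdh13. With CPM per kb they were 51.8% for Cdh1 in EPR, 56.9% and 11.3% for Cdh2 in mock and EPR, 36.9%, 32.1% and 33.0% for Cdh6, and 5.89%, 4.70% and 7.59% for Cdh13. The cause was not tested. No paired analysis was possible because the library numbers are not shared between conditions. Depth limits the mock level of Cdh1 and the 4 genes below the filter.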

Other observations

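The genes of cadherin turnover were mostly higher in the overexpressing pools. Of 10 such genes 9 were tested, and 6 rose and none fell in each comparison with mock, with median log2 fold changes of 0.76 in EPR and 0.66 in EPRSTOPE, beside -0.01 and -0.04 over all genes. All-gene shares were 15.2% higher and 12.9% lower in EPR, and 15.6% and 12.4% in EPRSTOPE. Mmp3 passed the filter only through overexpressing libraries and could hardly be called lower against mock. Adam15, a metalloprotease that can shed E-cadherin, rose by 0.76 (SE 0.07) and 0.81 (SE 0.07), though its call in EPR was lost at 0.34 with counts scaled from TPM. Mmp14, a membrane-bound matrix metalloprotease, rose by 1.06 (SE 0.05) and 1.17 (SE 0.05). Ctsb, a lysosomal protease, rose by 1.43 (SE 0.07) and 1.78 (SE 0.07). Mmp3, stromelysin-1, which cleaves the E-cadherin ectodomain, averaged 0.773 ± 0.283 CPM in mock against 16.9 ± 2.25 CPM in EPR, with 98.5 ± 13.2 CPM in EPRSTOPE (SD, n = 3), and EPR against EPRSTOPE gave -2.55 (SE 0.14, adjusted p = 1e-07). Adam10, the main E-cadherin sheddase, was chosen after its values were seen and rose by 0.77 and 0.66. Whether E-cadherin protein is cleaved cannot be read from RNA.

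Of 8 endothelial markers 2 were tested and none was called in any comparison by edgeR, and of 7 immune markers the 1 tested was not called by edgeR. Over all genes, 15.2% were called higher and 12.9% lower in EPR, and 15.6% and 12.4% in EPRSTOPE. The immune gene tested was Cd68, named here after its values were seen. Against mock it was at 0.92 (adjusted p = 0.0357) in EPR and 0.58 (adjusted p = 0.187) in EPRSTOPE. In EPR against mock it was called in 3 of 19 alternatives.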
